A study of Homo sapiens with 33 samples.

Results

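The data compared RNA from H9 human embryonic stem cells that lacked EZH2 (*EZH2*-/-) with RNA from the same kind of cells in which EZH2 had been returned (*EZH2*-/-+*EZH2*), with 3 libraries of each. Genes were included if they averaged at least 1 RPM (a gene's read count relative to library size) over all 12 RNA libraries of the 4 genotypes, which left 15499 of the 35805 genes listed. H9 is an established human pluripotent line. *EZH2* was cut by CRISPR/Cas9 in an early exon, first on one allele and then on both. Because the second step was done in a line carrying a doxycycline-inducible *EZH2* transgene, *EZH2*-/-+*EZH2* cells are *EZH2*-/- cells grown with doxycycline, and the effect of the drug and the effect of the protein cannot be told apart. The labels do not say how many clones stand behind the 3 libraries, so p values measure the spread between these libraries. *EZH2*+/+ (parental H9) and *EZH2*-/+ libraries, 3 each, are given as reference levels. All cells were grown on mouse feeder cells and sorted as live SSEA4-positive cells before RNA extraction.

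EZH2 is the catalytic subunit of Polycomb Repressive Complex 2 (PRC2), which places methyl groups on lysine 27 of histone H3 (H3K27me3). In embryonic stem cells this mark lies over the start sites of many silent genes, among them those that drive differentiation. PRC1 is a companion complex that is recruited in part through H3K27me3, and acetylation of the same lysine (H3K27ac) marks active promoters and enhancers.

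Start site sequences of 4 genes on which the comparison turns are shown here because the chromatin values given further on come from windows around them. They are the RefSeq sequences (GRCh38.p14) from 250 bases before to 50 bases after the start, on the minus strand for all 4, with each CpG in capitals. *HAND1* and *PITX1* (transcription factors of mesoderm and limb) were higher in *EZH2*-/- and had much H3K27me3 in *EZH2*-/-+*EZH2* cells, *FN1* (fibronectin) was higher with less of the mark than most risen genes, and *BUB1* (a mitotic checkpoint kinase) was lower with little of it.
HAND1, chr5:154478178-154478477: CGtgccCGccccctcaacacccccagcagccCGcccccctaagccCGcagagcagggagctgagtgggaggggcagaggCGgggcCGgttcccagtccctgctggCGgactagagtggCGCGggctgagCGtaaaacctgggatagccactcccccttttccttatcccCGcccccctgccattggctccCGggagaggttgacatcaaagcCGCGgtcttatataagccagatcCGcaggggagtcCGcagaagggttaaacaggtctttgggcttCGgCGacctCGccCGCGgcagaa
PITX1, chr5:135034179-135034478: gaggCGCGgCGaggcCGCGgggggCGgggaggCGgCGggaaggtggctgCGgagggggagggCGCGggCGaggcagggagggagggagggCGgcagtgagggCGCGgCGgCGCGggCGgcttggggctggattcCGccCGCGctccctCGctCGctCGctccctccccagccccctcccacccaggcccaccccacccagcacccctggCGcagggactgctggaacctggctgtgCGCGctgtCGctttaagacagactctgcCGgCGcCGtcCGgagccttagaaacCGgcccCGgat
FN1, chr2:215436019-215436318: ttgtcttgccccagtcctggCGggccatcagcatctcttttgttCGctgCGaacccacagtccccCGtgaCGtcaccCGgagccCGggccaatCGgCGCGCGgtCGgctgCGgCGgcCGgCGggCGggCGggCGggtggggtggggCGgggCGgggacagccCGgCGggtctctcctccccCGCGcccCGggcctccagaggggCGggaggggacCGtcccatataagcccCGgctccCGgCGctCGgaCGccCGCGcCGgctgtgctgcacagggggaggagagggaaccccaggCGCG
BUB1, chr2:110678014-110678313: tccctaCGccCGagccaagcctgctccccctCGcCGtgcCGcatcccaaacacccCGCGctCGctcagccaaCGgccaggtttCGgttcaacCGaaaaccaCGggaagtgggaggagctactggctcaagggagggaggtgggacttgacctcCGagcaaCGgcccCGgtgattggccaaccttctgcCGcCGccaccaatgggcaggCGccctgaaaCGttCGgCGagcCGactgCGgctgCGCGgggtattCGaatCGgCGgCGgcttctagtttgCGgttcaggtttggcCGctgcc
The CpG counts (letters CG, the same on both strands) were 21 for *HAND1*, 35 for *PITX1*, 38 for *FN1* and 31 for *BUB1*, against a median of 14 over the 35116 RefSeq promoter sequences of 300 bases. At least as many CpGs as in *HAND1* were held by 39.5% of those sequences, and at least as many as in *FN1* by 9.91%. The last 3 lie above the upper quartile of 28 over all sequences, and *HAND1* lies between the median and this quartile.

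The targeted gene was measured first. *EZH2* (chromosome 7, 148807383 to 148884321, GRCh38) was at 11.5, 8.65 and 9.68 RPM in the *EZH2*-/- libraries and at 271, 385 and 256 RPM in the *EZH2*-/-+*EZH2* libraries. The labels were borne out in all 6 libraries, and restored cells lay above the 63.8 ± 4.56 RPM (SD, n = 3) of *EZH2*+/+ cells. On the log2(RPM + 0.1) scale the null libraries were lower, with a fold change of -4.91 ± 0.17 (SE, adjusted p = 1.24e-08, limma on log2 RPM with Benjamini-Hochberg adjustment over 20608 genes). Reads of the transgene and of the disrupted gene were counted together.

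The 6 libraries held 16587860 to 35502184 reads on genes, with an *EZH2*-/-+*EZH2* library the shallowest, so 3 reads corresponded to 0.0528 to 0.120 RPM. Stem cell factors were expressed in both groups, not all at the same level. *POU5F1* (OCT4) was at 1119 to 1524 RPM in *EZH2*-/- against 1237 to 1315 RPM in *EZH2*-/-+*EZH2* libraries, a log2 difference of 0.02 (adjusted p = 0.966, limma) whose sign turned under another scaling. *LIN28A*, *DPPA4*, *ZFP42* and *DNMT3B* had log2 differences between -0.02 and 0.07. *SOX2*, a core pluripotency factor named after its values were seen, was at 135, 88.0 and 105 RPM in *EZH2*-/- libraries, below the 159, 140 and 182 RPM in *EZH2*-/-+*EZH2* libraries and the 224 RPM in *EZH2*+/+ cells. Its log2 difference of -0.57 did not pass (adjusted p = 0.180) and passed with the replicate number as a block (adjusted p = 0.0251). *NANOG* was at 84.5 to 92.4 RPM against 51.3 to 76.3 RPM (0.44, adjusted p = 0.601). Replicate 3 of *EZH2*-/-+*EZH2* stood apart from its 2 partners on the first principal component, at -5.56 against 26.0 and 20.5, with the *EZH2*-/- libraries at 52.99 to 68.8 and the *EZH2*+/+ libraries at -50.6 to -45.8. Results without it, and without each of the other libraries, are given with the counts. Defining markers of the blood lineage (*PTPRC*, *SPI1*) did not exceed 0.0536 RPM in any of these 6 libraries and *HBZ* and the placental hormone gene *CGA* had no read. The dermal proteoglycan gene *LUM* was at 0.369 to 6.25 RPM in *EZH2*-/- libraries and at most 0.0268 RPM in *EZH2*-/-+*EZH2* libraries, whereas its partner *DCN* did not exceed 0.169 RPM.

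Of the 15499 genes, 300 were higher in *EZH2*-/- cells and 107 were lower (adjusted p under 0.05, limma), which is 1.94% and 0.690% of them. Fold changes are *EZH2*-/- over *EZH2*-/-+*EZH2* on the log2(RPM + 0.1) scale, and a single number in parentheses after a gene is its log2 fold change. The risen genes had a median log2 fold change of 1.63, a factor of 3.10, and 254 of the 300 differed by at least 2-fold, 95 by at least 4-fold. The fallen genes changed less, with a median of -1.07, and 60 of the 107 differed by at least 2-fold. Over all 15499 genes the median was 0.00, and 94.9% lay within 2-fold. All 3 *EZH2*-/- libraries lay above all 3 *EZH2*-/-+*EZH2* libraries for 298 of the risen genes, against 11.9% of all members in that direction, and all 107 fallen genes were fully separated the other way, against 10.7%. The same libraries made the calls, so this separation follows largely from the selection and is a description only. Bins by level used the mean of all 12 libraries, the *EZH2*-/- ones included. Of genes averaging 1 to 3 RPM 3.99% rose and 0.603% fell, and of genes averaging 100 RPM or more 0.344% rose and 0.860% fell. Restored libraries averaged under 1 RPM for 69 of the risen genes and, with at least 1 RPM in *EZH2*-/-, for 292 members in all. Genes that met the 1 RPM limit through their high group thus enter the lowest bin and the gene lists. Median levels of the risen genes were 9.61 RPM in *EZH2*-/-, 2.55 RPM in *EZH2*-/-+*EZH2* and 2.78 RPM in *EZH2*+/+ cells. For the fallen genes these medians were 4.57, 10.7 and 19.7 RPM.

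The number of calls depended on single libraries and on pairing. A limma fit with the replicate number as a block called 845 genes higher (5.45%) and 623 lower (4.02%). All 407 calls of the fit without a block were among these. The block is a pairing taken from the data and not from the labels. Without *EZH2*-/- replicate 2, 58 genes were higher and 14 lower, without *EZH2*-/- replicate 3 these were 96 and 39, and without *EZH2*-/- replicate 1 they were 369 and 131. Without *EZH2*-/-+*EZH2* replicates 1, 2 and 3 in turn, 147, 100 and 128 genes were higher and 47, 30 and 23 lower. All 407 kept their direction in each of these fits, but leaving out 1 library cannot turn a gene whose groups do not overlap. Of the 407 calls, 71 stayed called without *EZH2*-/- replicate 2 and 337 without *EZH2*-/- replicate 1, the lowest and highest of these fits. Limma voom on reads recovered from the RPM values called fewer, 173 higher (1.12%) and 36 lower (0.232%). Counts by the block and by voom are given with each gene list.

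**Figure D1:**
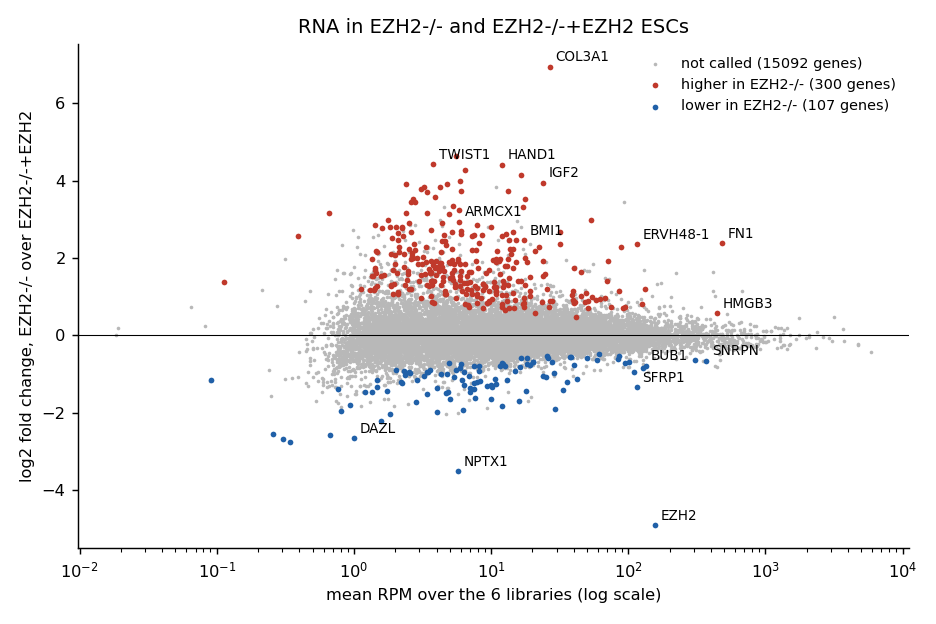
Log2 fold change of *EZH2*-/- over *EZH2*-/-+*EZH2* ESCs (vertical axis, log2(RPM + 0.1) scale) against the mean RPM of the 6 libraries (horizontal, log scale) for 15499 genes. Red points are the 300 genes called higher and blue points the 107 called lower at an adjusted p under 0.05. The red points reach log2 6.94 (*COL3A1*) and crowd at low and middle levels, and *EZH2* is the lowest point at -4.91.

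The gene that rose most was *COL3A1*, which encodes the fibrillar type III collagen of loose connective tissue. It was at 4.70, 109 and 47.8 RPM in *EZH2*-/- replicates 1, 2 and 3 and at 0.0514, 0.0268 and 0.600 RPM in the *EZH2*-/-+*EZH2* libraries. The groups did not overlap, but *EZH2*-/- replicate 1 was 23.2 times lower than replicate 2. The log2 fold change was 6.94 ± 1.18 (SE, adjusted p = 0.00945, limma). *HAND1*, a basic helix-loop-helix factor of heart, extraembryonic mesoderm and amnion, had the same shape, with 2.69, 35.9 and 31.3 RPM in *EZH2*-/- against 0.283, 0.322 and 1.92 RPM in *EZH2*-/-+*EZH2* libraries (log2 fold change 4.41, adjusted p = 0.0194). *PITX1* was at 1.99, 19.95 and 10.9 RPM against 0.257, 0.268 and 0.120 RPM (4.65, adjusted p = 0.00340). *IGF2*, the imprinted fetal growth factor, was at 8.81, 66.8 and 60.2 RPM against 0.797, 1.98 and 5.08 RPM (3.95, adjusted p = 0.0198). In each of these genes *EZH2*-/- replicate 1 was the lowest *EZH2*-/- library, yet above every restored library. The largest rises were taken only from genes without overlap, so this separation is part of the choice. None of the 4 was called by voom.

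*TWIST1*, which encodes a driver of mesenchymal fate, was even across libraries. It was at 5.61, 7.96 and 8.34 RPM in *EZH2*-/- against 0.257, 0.161 and 0.320 RPM in *EZH2*-/-+*EZH2* libraries, with a log2 fold change of 4.43 ± 0.31 (SE, adjusted p = 1.7e-05). The cell cycle inhibitors of the *INK4* locus rose as well. *CDKN2A* was at 10.0, 14.1 and 15.0 RPM against 2.70, 1.80 and 1.72 RPM (log2 fold change 2.60, adjusted p = 0.00179), and *CDKN2B* at 1.27, 9.37 and 3.41 RPM against 0.154, 0.134 and 0.120 RPM (3.92, adjusted p = 0.00340). Both overlap *CDKN2B-AS1* on the annotation, and the counting ignored strand, so these reads cannot be assigned to one strand. The remaining genes with the largest rises were *LHX1* (log2 fold change 4.29), *HAPLN1* (4.15), *ACTA2-AS1* (3.91), *INS-IGF2* (3.85), the T cell kinase *ZAP70* (3.84) and *AC132217.4* (3.78). *ACTA2-AS1* overlaps *ACTA2*, and *INS-IGF2* and *AC132217.4* overlap *IGF2*, so they may share reads with these neighbours.

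The risen gene with the most reads was *FN1*, the matrix glycoprotein fibronectin, at 503, 1262 and 681 RPM in *EZH2*-/- against 126, 120 and 199 RPM in *EZH2*-/-+*EZH2* libraries (log2 fold change 2.39 ± 0.32, adjusted p = 0.00280). The log2 fold change of *HMGB3*, a chromatin protein gene, was 0.57 (adjusted p = 0.0386), with 467 to 586 RPM against 338 to 381 RPM. *CCND1* (cyclin D1) was at 154 to 163 RPM against 78.1 to 109 RPM, *COL4A1* at 134 to 289 RPM against 72.6 to 83.1 RPM, and *MRS2*, a mitochondrial magnesium channel gene, at 106 to 125 RPM against 62.8 to 90.9 RPM. *ERVH48-1*, the locus of the retroviral envelope protein suppressyn, was at 121, 153 and 316 RPM against 27.5, 40.5 and 38.3 RPM (2.36, adjusted p = 0.0207). Its *EZH2*+/+ mean was 2.72 RPM, below both groups. These 6 genes were taken only from called genes without overlap between the groups, so their separation is part of the choice.

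Collagens and other matrix genes were higher in part. Of 26 collagens measured, 7 rose and none fell, and 13 rose and 1 fell with the replicate block, against 1.94% and 5.45% of all genes. Voom called 4 of them higher. *COL6A3* was at 10.2, 57.8 and 30.6 RPM in *EZH2*-/- against 1.90 to 2.52 RPM in *EZH2*-/-+*EZH2* libraries (log2 fold change 3.53, adjusted p = 0.00370), and *COL5A1* at 57.1, 209 and 83.1 RPM against 20.3 to 34.9 RPM (1.94, adjusted p = 0.0173). The median over the 26 was 0.72. Of 47 other matrix proteins and their enzymes 9 rose, led by *FN1*, the protease inhibitor gene *TIMP3* (1.94, adjusted p = 0.0497) and the proteoglycan gene *BGN* (1.93, adjusted p = 0.00356), and *MATN2* (matrilin 2) fell by 0.94 on the log2 scale. With the block 11 rose and 1 fell, and by voom 6 and 0. *BGN* was at 33.4 to 40.0 RPM against 6.59 to 14.0 RPM, without the low value in *EZH2*-/- replicate 1.

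Of 20 genes of the epithelial to mesenchymal transition 6 rose, *TWIST1*, *ACTA2*, *SNAI2*, *FN1*, *CDH11* and *TWIST2*, and none fell (7 and 2 with the block, 3 and 0 by voom). Over all genes 1.94% rose and 0.690% fell, and 5.45% and 4.02% with the block. *ACTA2*, smooth muscle actin, was at 3.10, 52.3 and 20.6 RPM against 0.823, 0.670 and 2.00 RPM (log2 fold change 3.73, adjusted p = 0.0253), and *SNAI2*, the Slug repressor, at 0.739, 5.28 and 3.77 RPM against 0.411, 0.0804 and 0.280 RPM (2.99, adjusted p = 0.0369). The pair that fell with the block were *VIM* and *CDH2*, both defining mesenchymal markers and named after their values were seen. *VIM* (vimentin) was at 270, 365 and 299.6 RPM in *EZH2*-/- against 438, 459 and 748 RPM in *EZH2*-/-+*EZH2* libraries (log2 difference -0.78, adjusted p = 0.109, and 0.0127 with the block). *CDH2* (N-cadherin) was at 65.7, 87.9 and 44.1 RPM against 94.6, 92.9 and 91.3 RPM (-0.55, adjusted p = 0.223, and 0.0471 with the block). Of 27 genes of epithelial junctions and keratins 7 rose, *CLDN7*, *OVOL1*, *CLDN4*, *GRHL2*, *CDH1*, *ESRP1* and *CDH3*, and none fell (15 and 0 with the block, 7 and 0 by voom), with a median of 0.86. *CLDN7*, a tight junction claudin, was at 24.98, 41.3 and 45.4 RPM against 4.96, 10.2 and 7.67 RPM (2.29, adjusted p = 0.00314). *OVOL1*, an epithelial transcription factor, was at 2.39 to 4.39 RPM against 0.360 to 0.959 RPM, and *CLDN4* at 2.96 to 8.82 RPM against 0.823 to 1.39 RPM. *CDH1*, E-cadherin, was named after its values were seen, at 105, 119 and 128 RPM against 43.6, 59.5 and 57.2 RPM (1.14, adjusted p = 0.0240). Some genes of the mesenchymal and some of the epithelial list were thus higher in the same *EZH2*-/- libraries, while *VIM* and *CDH2* lay lower in them.

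Some adhesion and guidance genes rose, and most were not called. Of all genes 1.94% rose and 0.690% fell, and with the block 5.45% rose and 4.02% fell. Among 41 cadherins, integrins and other adhesion genes 6 rose (10 rose and 3 fell with the block, 3 and 0 by voom), and 17 had a negative difference. The risen ones were led by *ITGA11*, a collagen receptor subunit, at 0.827, 15.6 and 3.44 RPM against 0.0536 to 0.360 RPM (log2 fold change 3.70, adjusted p = 0.0413). *ITGA9* rose by a log2 fold change of 2.21 and *CDH13* by 1.87. Of 41 axon guidance genes 4 rose, *PLXNA2* (2.68), *NRP1* (2.33), *NTN4* (1.97) and *EPHB3*, and none fell, with 12 and 1 under the block and 2 and 0 by voom, and 15 had a negative difference. *PLXNA2* and *NRP1* encode semaphorin receptors and *NTN4* a netrin. Of 14 fibroblast and stromal markers 4 rose (*COL3A1*, *ACTA2*, *COL6A3*, *TWIST2*) and *SFRP1* fell, with 6 and 1 under the block and 2 and 1 by voom. Their summed level was 705 to 1042 RPM in *EZH2*-/-, 644 to 821 RPM in *EZH2*-/-+*EZH2* and 866 to 950 RPM in *EZH2*+/+ libraries, with *FSTL1* among the highest at 159 to 170 RPM against 165 to 225 RPM (log2 difference -0.21, adjusted p = 0.579). Whether cells of another type contributed was not tested.

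Germ layer lists were higher in part. Over all genes 1.94% rose, 5.45% with the block and 1.12% by voom. The 1 RPM limit kept 21 of 26 endoderm, 14 of 29 primitive streak and mesoderm, and 11 of 20 neural crest and placode genes. It kept 8 of 23 trophectoderm and amnion genes and 5 of 24 endothelial and blood genes. *FOXQ1* and *HAND1* averaged under 1 RPM in every genotype but *EZH2*-/-. The limit thus favours risen genes, and the shares and medians of these lists are not free of it. Of 21 endoderm genes, 7 rose and none fell (12 and 0 with the block, 2 and 0 by voom), and the median log2 fold change was 2.26. They included *FOXQ1* (3.58), *LGR5* (3.34), *APOA2* (2.69), *SOX17*, *CXCR4* and *CST1*. Other defining factors did not pass. *GATA4* was at 11.75 to 38.4 RPM against 2.73 to 5.50 RPM (2.44, adjusted p = 0.132, and 0.0433 with the block). *FOXA2* was at 12.8 to 23.3 RPM against 4.08 to 14.1 RPM (1.39, adjusted p = 0.264, and 0.0521 with the block). *EOMES* was at 23.75 to 45.4 RPM against 7.1 to 44.9 RPM (1.11, adjusted p = 0.548). The groups overlapped for *FOXA2* and *EOMES*. *FOXQ1*, a forkhead factor, was at 3.50, 14.0 and 4.72 RPM against 0.348 to 0.489 RPM. The summed level of the list was 605 to 1093 RPM in *EZH2*-/-, 341 to 387 RPM in *EZH2*-/-+*EZH2* and 330 to 357 RPM in *EZH2*+/+ libraries. Of 14 primitive streak and mesoderm genes 2 rose (*HAND1*, *BMP4*), 5 with the block and none by voom, and the summed level was 265 to 634 RPM against 132 to 262 RPM. The mesoderm factor *T* (brachyury) was at 17.3 to 30.6 RPM against 0.999 to 12.3 RPM, a log2 difference of 2.97 that did not pass (adjusted p = 0.0535) and passed with the block (adjusted p = 0.0109). Of 11 neural crest and placode genes 2 rose (*SNAI2* and *MSX1*), 5 with the block and none by voom, and of 8 trophectoderm and amnion genes 3 rose (*HAND1*, *TBX3*, *PGF*), 4 with the block and 1 by voom. *TBX3* was at 7.13, 16.0 and 10.4 RPM against 0.360, 0.563 and 1.56 RPM (3.74, adjusted p = 0.00280). *CDX2*, a defining trophectoderm factor, was at 0.246 to 1.41 RPM in *EZH2*-/- libraries. Of 5 endothelial and blood genes measured *FLI1* rose (1.86), with 2 and 0 under the block and 1 and 0 by voom, while *KDR* (-0.34, adjusted p = 0.515) and *TEK* (-0.90, adjusted p = 0.361) were not called. *RUNX1*, a blood stem cell factor named after its values were seen, was at 2.74, 2.93 and 1.57 RPM against 1.08, 0.429 and 0.679 RPM (1.63, adjusted p = 0.0556, and 0.0190 with the block). Both further defining endothelial markers averaged under 1 RPM and so are no members. *CDH5* (VE-cadherin) was higher, at 0.594 to 0.651 RPM against 0 to 0.180 RPM (2.07, adjusted p = 0.0193), and *PECAM1* was at 0.985 to 2.02 RPM against 0.1998 to 0.566 RPM (1.57, adjusted p = 0.0829, and 0.0472 with the block).

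None of 19 neuroectoderm genes passed the limma test in either direction (2 higher and 4 lower at an unadjusted p under 0.05, none by voom), and with the block 2 rose and 3 fell, *FEZF1*, *CDH2* and *MAP2*. The list median was -0.19. *FEZF1*, a forebrain zinc finger factor, was at 7.09, 2.01 and 3.56 RPM against 18.3, 9.38 and 15.7 RPM (log2 difference -1.88, adjusted p = 0.230, and 0.0106 with the block), and *MAP2*, a neuronal microtubule protein gene, at 4.20, 1.45 and 3.47 RPM against 10.4, 5.23 and 9.91 RPM (-1.52, adjusted p = 0.102, and 0.0219 with the block). Both were named after their values were seen. *NES* (nestin) was at 312 to 350 RPM against 177 to 291 RPM, with a log2 difference of 0.51 (adjusted p = 0.183, and 0.0314 with the block), and *TUBB3*, a neuronal tubulin, at 115 to 163 RPM against 96.2 to 113 RPM (0.48, adjusted p = 0.167). Among 31 genes of neuronal synapses and secretion 3 fell and none rose (4 and 2 with the block, 2 and 0 by voom). Over all genes 0.690% fell, 4.02% with the block and 0.232% by voom. *NPTX1*, a secreted synaptic pentraxin, was at 0.756, 0.451 and 1.10 RPM in *EZH2*-/- against 5.76, 7.37 and 18.9 RPM in *EZH2*-/-+*EZH2* libraries, against 25.4 RPM in *EZH2*+/+ cells (log2 fold change -3.51 ± 0.62, SE, adjusted p = 0.0110). *KHDRBS2*, a neural splicing regulator, had no read in the *EZH2*-/- libraries and 0.334, 0.375 and 1.36 RPM in restored libraries, at least 7.74-fold lower against a floor of 3 reads per library (0.0891 RPM), and at least 3.98-fold without restored replicate 3. *NETO1*, a glutamate receptor partner, had at most 0.0188 RPM in *EZH2*-/- libraries and 0.334, 0.7503 and 0.719 RPM in restored ones (adjusted p = 0.00287).

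Signalling lists held 0 to 6 calls each, where 1.94% of all genes rose and 0.690% fell (5.45% and 4.02% with the block). Of 23 BMP signalling genes, 6 rose and none fell, 13 rose with the block and 1 rose by voom. The 6 included the ligand genes *BMP2* and *BMP4* (12.6, 27.2 and 29.9 RPM against 6.52 to 10.5 RPM, log2 fold change 1.42), the extracellular regulator *BMPER* (2.73) and the target genes *HAND1*, *TBX3* and *MSX1* (2.28). None of 27 TGF-beta, Activin and Nodal genes passed the limma test (9 higher and 1 lower at an unadjusted p under 0.05, none by voom), and with the block 4 rose and 1 fell. The Nodal inhibitor gene *LEFTY2* was at 401 to 831 RPM against 96.5 to 478 RPM and overlapped between the groups (log2 difference 1.65, adjusted p = 0.379, and 0.0617 with the block). In the WNT list of 41, the agonist gene *RSPO3* (3.44) and its receptor gene *LGR5* rose and the antagonist gene *SFRP1* fell (8 and 2 with the block, 0 and 1 by voom). *SFRP1* was at 82.2, 64.4 and 51.6 RPM in *EZH2*-/- against 158, 146 and 190 RPM in *EZH2*-/-+*EZH2* libraries, with 345 RPM in *EZH2*+/+ cells (-1.33, adjusted p = 0.0143). In the FGF list of 29, *DUSP4*, a phosphatase gene induced by ERK (2.00), and *FGF18* (1.42) rose and *FGFBP3*, an FGF carrier gene, fell (-1.71), with 7 and 2 under the block and 1 and 1 by voom. *FGFBP3* was at 5.88 to 8.31 RPM against 14.5 to 36.6 RPM and at 145 RPM in *EZH2*+/+ cells. In the Notch, Hedgehog and retinoic acid list of 29, the Notch ligand gene *DLL3* (2.63) and the retinal dehydrogenase gene *ALDH1A3* (1.41) rose and the retinoic acid receptor gene *RARG* fell (-0.82), with 6 and 3 under the block and 2 and 1 by voom.

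Growth factor and imprinted genes overlapped in membership. Over all genes 1.94% rose and 0.690% fell, and 5.45% and 4.02% with the block. Of 15 insulin-like growth factor genes and binding proteins, *IGF2*, *H19*, *IGFBP5* and *IGFBP7* rose, with 5 under the block and none by voom. *H19*, the imprinted RNA beside *IGF2*, was at 16.3, 117 and 160 RPM against 5.71, 6.22 and 16.7 RPM, so that *EZH2*-/- replicate 1 overlapped with restored replicate 3 (log2 fold change 2.99, adjusted p = 0.0369). *IGFBP5* was at 28.6, 108 and 32.2 RPM against 4.56 to 13.03 RPM, with an *EZH2*+/+ mean of 108 RPM. Among 24 imprinted genes 5 rose, the deiodinase gene *DIO3* (3.45), *IGF2*, *H19*, *PHLDA2* and *BLCAP*, and 2 fell, *SNRPN* and *SNURF*, which share a transcript and much of their reads. With the block 5 rose and 3 fell, and by voom 2 and 0. *SNRPN* was at 280, 254 and 329 RPM against 392.1, 425 and 547 RPM (-0.65, adjusted p = 0.0483).

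The few calls among mitosis and DNA replication genes were lower. Of all genes 0.690% fell, and 4.02% with the block. The 1 and 2 calls of the limma fit are too few to be a result about these lists. None of 54 mitosis genes rose and *BUB1* fell, with 0 and 5 under the block and 0 and 1 by voom, and the list median was -0.26. *BUB1* was at 118, 86.6 and 91.0 RPM against 172, 159 and 175 RPM (-0.79 ± 0.14, SE, adjusted p = 0.0114). *TOP2A* was at 161 to 215 RPM against 211 to 250 RPM (-0.36, adjusted p = 0.380) and *CCNB1* at 159 to 177 RPM against 154 to 240 RPM (-0.16, adjusted p = 0.706). Of 50 DNA replication genes *TYMS*, thymidylate synthase (-0.71, adjusted p = 0.0173), and *CDC7*, the kinase that fires origins (-0.55, adjusted p = 0.0385), fell, 8 fell with the block and 1 by voom. *FANCD2* (-0.49) and *TIMELESS* (-0.54), of DNA repair and fork protection and named after their values were seen, were also called lower. Of 28 CDK inhibitor and p53 target genes, by contrast, *CDKN2B*, *CDKN2A*, *PLK2*, *GDF15* and *PHLDA3* rose and none fell (5 and 0 with the block, 4 and 0 by voom). Over all genes 1.94% rose, 5.45% with the block and 1.12% by voom. *PLK2* was at 17.9 to 35.3 RPM against 4.71 to 8.43 RPM (1.90, adjusted p = 0.00747) and the stress cytokine gene *GDF15* at 9.85 to 14.8 RPM against 2.91 to 4.18 RPM (1.74, adjusted p = 0.0376). The remaining abundant fallen gene, *NME4*, a mitochondrial nucleotide kinase gene, was at 81.0 to 98.0 RPM against 158 to 178 RPM (-0.85, adjusted p = 0.00747).

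Metabolic and housekeeping lists are given for their values. At the overall shares of 1.94% and 0.690%, lists of this size hold few calls or none, so a lack of calls here, and in the other lists without any, is no result about the list. None of 36 nuclear respiratory chain genes, 13 mitochondrially encoded genes or 57 ribosomal protein genes passed the limma test in either direction, with or without the block. None of 34 glycolysis and hypoxia genes passed either, and 1 fell with the block. At an unadjusted p under 0.05, 1 of the respiratory chain genes was higher and 3 of the glycolysis genes lower, the other 2 lists had none, and limma voom called none of the 4 lists. Median log2 fold changes of these 4 lists were 0.01, -0.13, -0.17 and -0.28. *MT-CO1* differed by -0.43 (adjusted p = 0.342), *MT-CO3* by -0.21, *ATP5A1* by -0.09, *RPL3* by -0.22 and *ENO1* and *GAPDH* by -0.05 and -0.04. *ATP5B* and *RPS4X* differed by 0.05 and 0.00. Of 28 cholesterol synthesis genes and partners, only *FADS1*, a fatty acid desaturase gene, fell (-0.69, adjusted p = 0.0211), and 4 fell with the block and 1 by voom, with *SCD* at -0.26 (adjusted p = 0.432). Of 28 ATF4 and mitochondrial stress genes *GDF15* and *ATF3* (1.26) rose, with 2 and 0 under the block and 1 and 0 by voom. None of 29 heat shock and unfolded protein response genes passed (9 higher at an unadjusted p under 0.05, none by voom), although 6 rose with the block, among them the chaperone gene *HSPA8* (0.46, adjusted p = 0.163, and 0.0340 with the block), while *HSP90AB1* differed by -0.05. Of 22 immediate early genes *KLF2* (2.10), *FOSL2* (1.86) and *ATF3* rose and 10 rose with the block, while voom called none, and all 22 had a positive difference.

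The remaining lists also held few calls. Of 28 MHC class I and interferon genes the RNA sensor gene *DDX58* rose (0.88, adjusted p = 0.0308), with 3 rising and 1 falling under the block and none by voom, while *IFITM1* and *IFITM2*, neighbours with similar sequence, differed by 0.24 and 0.13 (adjusted p = 0.633 and 0.791). None of 8 replication-dependent histone genes passed the limma test (3 higher at an unadjusted p under 0.05, none with the block or by voom), with *HIST1H2AC* at a log2 difference of 1.11 (adjusted p = 0.256) and *HIST1H1C* at 0.67 (adjusted p = 0.514). Of 23 serum response factor and YAP targets *ACTA2* and the coagulation factor gene *F3* (1.15) rose and the receptor kinase gene *AXL* fell (-0.59), with 7 and 1 under the block and 1 and 0 by voom. Among 9 germline genes *DPPA3* (STELLA) rose, at 4.36, 8.50 and 13.9 RPM against 0.669 to 1.21 RPM (3.14, adjusted p = 0.00352). *DAZL*, an RNA-binding protein gene of germ cells, fell, at 0.422, 0.131 and 0.119 RPM against 1.67, 1.82 and 1.84 RPM (-2.66, adjusted p = 0.0172), and was not called by voom. With the block 2 of the 9 rose and 2 fell, and by voom 1 and 0.

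None of 13 genes of other PRC2 subunits and partners passed the limma test (1 higher and 1 lower at an unadjusted p under 0.05, none by voom), and 1 rose with the block. *RBBP4* was at 196 to 207 RPM against 211 to 232 RPM (-0.13, adjusted p = 0.593) and *RBBP7* at 189 to 225 RPM against 218 to 258 RPM (-0.18, adjusted p = 0.547). Of 20 PRC1 subunit genes *BMI1* rose, and 3 rose and 1 fell with the block, and 1 and 0 by voom. *BMI1*, a core PRC1 ring finger protein gene, was at 33.6, 34.7 and 20.8 RPM in *EZH2*-/- against 6.07, 5.95 and 3.80 RPM in *EZH2*-/-+*EZH2* libraries, with 6.97 RPM in *EZH2*+/+ cells (log2 fold change 2.47 ± 0.33, SE, adjusted p = 0.00280). It overlaps the readthrough gene *COMMD3-BMI1*, with which reads may be shared. *PHC1* (-0.13) and *CBX2* (0.24, adjusted p = 0.640) of PRC1 were not called. Of 22 pluripotency factors *UTF1*, a chromatin protein gene of stem cells, rose, at 16.1, 26.4 and 25.6 RPM against 3.92 to 6.22 RPM (2.25, adjusted p = 0.00349). With the block *UTF1* rose, and *SOX2*, whose values are given above, and *ZIC2* fell (-0.46, adjusted p = 0.335, and 0.0439 with the block). *ZIC2* was named after its values were seen. By voom 1 of the 22 rose and none fell.

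Among the genes that fell most, *CHODL*, a membrane lectin gene, was at 0.264, 0.0939 and 0.0297 RPM against 0.720, 1.21 and 1.72 RPM (-2.58, adjusted p = 0.00802). The non-coding *CTC-260E6.4* had no read in *EZH2*-/- libraries and 0.283 to 0.640 RPM in restored ones, at least 5.76-fold lower against the same floor, and *RP11-10O22.1* fell by 2.22 on the log2 scale. Several fallen genes were below *EZH2*+/+ levels in both groups. The long non-coding RNA *MIAT*, named after its values were seen, was at 22.6, 7.98 and 8.82 RPM in *EZH2*-/- against 45.4, 34.5 and 55.2 RPM in *EZH2*-/-+*EZH2* libraries, with 130 RPM in *EZH2*+/+ cells, and the endothelin receptor gene *EDNRB*, named likewise, was at 4.04 to 5.47 RPM, 9.77 to 36.2 RPM and 62.5 RPM. For these genes restored cells held an intermediate level.

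*ARMCX1*, an X-linked gene named after its values were seen, had another pattern. It was at 10.7, 11 and 9.41 RPM in *EZH2*-/- against 0.926, 1.18 and 1.84 RPM in *EZH2*-/-+*EZH2* libraries (2.94 ± 0.21, SE, adjusted p = 1.98e-05), while *EZH2*+/+ and *EZH2*-/+ cells had 16.6 and 14.9 RPM. The restored cells were the ones that stood apart. Of 565 X-linked genes 19 rose (3.36%) and 1, *CD99L2* (-1.13), fell, and with the block 67 rose and 7 fell. Autosomal and mitochondrial genes rose in 1.88% of cases. The median log2 fold change of X-linked genes was 0.19, whereas the autosomes ranged from -0.12 to 0.12. Risen X-linked genes included *GPR50*, an orphan receptor gene (25.7 to 32.1 RPM against 5.32 to 11.6 RPM), *NRK*, a kinase gene (39.4 to 76.7 RPM against 6.56 to 13.6 RPM), and *TCEAL5* (2.69 to 5.34 RPM against 0.160 to 0.884 RPM and no read in *EZH2*+/+ cells). These 3 were named after their values were seen.

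Chromosome X as a whole differed from *EZH2*+/+ cells in both groups. Relative to the autosomes and to *EZH2*+/+ cells, the median X-linked gene stood at log2 0.87, 0.87 and 0.81 in the *EZH2*-/- libraries and 0.76, 0.72 and 0.50 in the *EZH2*-/-+*EZH2* libraries, and between -0.06 and 0.05 in the *EZH2*-/+ libraries. The difference between *EZH2*-/- and *EZH2*-/-+*EZH2* was 0.19, with no overlap of libraries (exact permutation test, two-sided, p = 0.1, the smallest that 3 against 3 allows), and restored replicate 3 was the lowest. Input chromatin from windows within 2.5 kb of start sites, with 1 column per genotype and so no replicate error, stood at log2 0.62 for X-linked genes in *EZH2*-/-, 0.54 in *EZH2*-/-+*EZH2* and -0.03 in *EZH2*-/+ cells on the same relative scale. Input and RNA of chromosome X therefore stood above *EZH2*+/+ in the same 2 genotypes. What part this has in the X-linked calls was not tested. *EZH2*-/- replicate 3 stood apart on several autosomes, at 0.25 on chromosome 17 with the other 5 libraries between -0.18 and -0.09, at 0.25 on chromosome 19 with the others between -0.03 and 0.08, and at -0.27 on chromosome 13 with the others between -0.10 and -0.01.

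The risen genes were uneven among the *EZH2*-/- libraries. Replicate 1 was the lowest of the 3 for 231 of the 300 risen genes, against 32.4% of all 15499, and replicate 2 the highest for 185. The highest *EZH2*-/- library was at least 4 times the lowest for 30 risen genes and less than 2 times for 194, counting libraries under 3 reads as 3 reads, and the median ratio was 1.73 against 1.35 over all genes. The same libraries chose these genes, so the spread is a description. The ratio differed between lists in the called members, with a median of 11.3 for the 4 risen fibroblast markers, 7.85 for the 2 risen mesoderm genes and 3.09 for the 6 of the epithelial to mesenchymal transition, against 1.34 for the 7 risen epithelial junction genes and 1.502 for the 5 CDK inhibitor and p53 genes. *HPGD*, a prostaglandin dehydrogenase gene (26.1, 35.8 and 31.7 RPM against 2.44 to 3.91 RPM), and *SYK*, a kinase gene (7.07, 9.54 and 6.98 RPM against 0.799 to 1.13 RPM), both named after their values were seen, were among the even ones. In bulk RNA, fewer cells expressing a gene and less RNA per cell cannot be told apart.

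**Figure D2:**
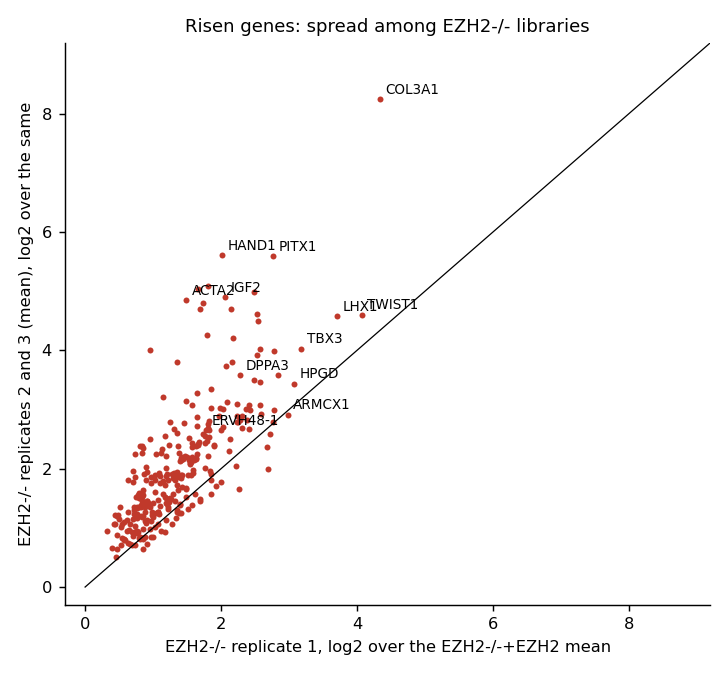
For the 300 risen genes, the log2 level of *EZH2*-/- replicate 1 (horizontal axis) and the mean of replicates 2 and 3 (vertical axis), both relative to the *EZH2*-/-+*EZH2* mean on the log2(RPM + 0.1) scale. The line marks equality. *HAND1*, *COL3A1* and *IGF2* lie far above it, and *TWIST1*, *HPGD* and *ARMCX1* close to it.

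Chromatin of the same genotypes was set beside the calls. For each gene the window with the most H3K27me3 in *EZH2*+/+ cells was used, and for H3K27ac and H3K4me3 the window with the most H3K4me3. Genes can have several windows, so the one used can lie away from the gene's first base, as for *COL3A1* and *CDKN2A*. The table holds 1 column per genotype and mark, so these values are a description with no replicate error and no test. At the 300 risen genes the median of H3K27me3 came to 8.24 RPM with restored EZH2 and 0.868 RPM without EZH2. For the 107 fallen genes it was 1.98 and 0.812 RPM, and for all 15482 genes with a window 1.65 and 0.834 RPM. In *EZH2*-/- cells the sets thus had about the same level, and they differed in restored and in *EZH2*+/+ cells, where the medians were 11.1, 2.21 and 2.10 RPM. H3K27me3 was at least 4-fold lower in *EZH2*-/- than in *EZH2*-/-+*EZH2* cells at 208 risen genes (69.3%), 33 fallen genes (30.8%) and 24.4% of all.

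H3K27ac at the risen genes was higher in *EZH2*-/- than in *EZH2*-/-+*EZH2* cells by a median log2 of 0.69 (quartiles 0.41 and 0.96), and it was higher at 279 of the 300 (93.0%). For the fallen genes the median was 0.13, with 65.4% higher, and for all genes 0.16, with 65.1% higher. H3K4me3 moved little, with medians of 0.08, -0.06 and 0.10. Individual genes spanned this range. At *TWIST1* H3K27me3 was 0.898 RPM in *EZH2*-/- against 25.4 RPM in *EZH2*-/-+*EZH2* cells, with H3K27ac higher by log2 1.72. *HAND1* (2.33 and 44.7 RPM), *PITX1* (1.74 and 32.9 RPM), *CDKN2A* (1.66 and 31.8 RPM) and *DLL3* (1.15 and 17.3 RPM) were alike in H3K27me3.

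Other risen genes had little of the mark in either state, or less than most. *FN1* had 0.614 RPM of H3K27me3 in *EZH2*-/- and 2.86 RPM in *EZH2*-/-+*EZH2* cells, between the medians of all genes and of risen genes. *COL3A1*, with the largest rise, had 0.541 RPM of H3K27me3 in *EZH2*-/-, 0.525 RPM in *EZH2*-/-+*EZH2* and 0.957 RPM in *EZH2*+/+ cells. This H3K27me3 window lies near the 3' end of *COL3A1* and not at its first base. H3K27ac of *COL3A1* differed by log2 -0.08. Its window held 0.387 RPM of H3K4me3 in *EZH2*-/- and 0.488 RPM in *EZH2*-/-+*EZH2* cells. Neither value is thus shown to describe the start site that *COL3A1* used. *DPPA3* had 0.938, 1.51 and 1.06 RPM and *ERVH48-1* 1.39, 1.09 and 1.99 RPM. In all, H3K27me3 fell by less than 2-fold at 55 of the 300 risen genes, against 57.5% of all genes, and at 22 it was under 2 RPM in all 3 genotypes. The mark was also high at some fallen genes. *NPTX1* had 2.71 RPM in *EZH2*-/- against 39.2 RPM in *EZH2*-/-+*EZH2* cells, with H3K27ac higher by 0.91 in *EZH2*-/- cells, where its RNA was lower, and *SFRP1* had 1.23 and 16.5 RPM. At *BUB1* these values were 0.752 and 0.982 RPM.

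**Figure D3:**
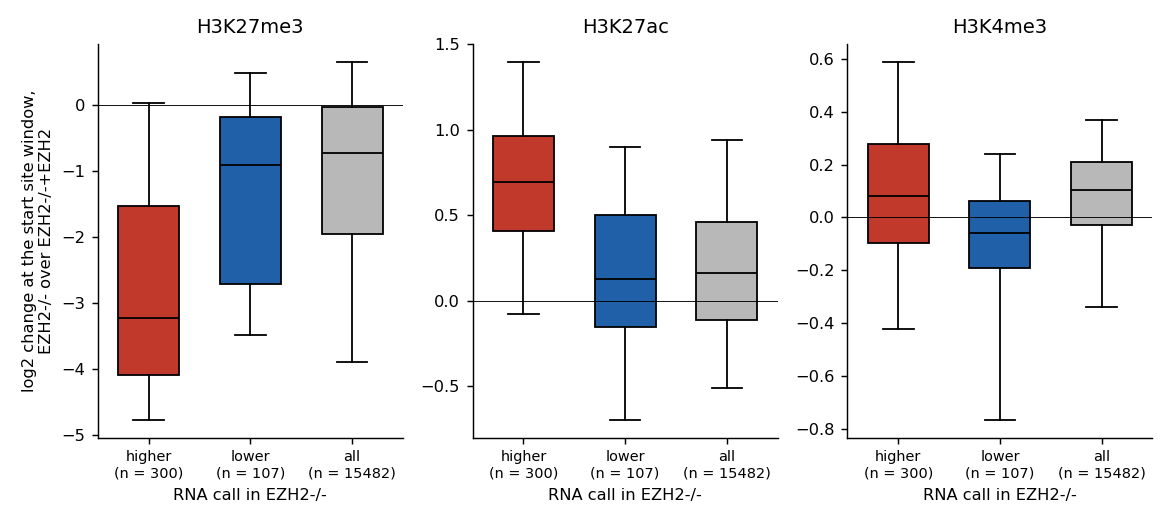
Log2 change of H3K27me3, H3K27ac and H3K4me3 in start site windows, *EZH2*-/- over *EZH2*-/-+*EZH2* ESCs (vertical axes, log2(RPM + 0.1), ranges differ), for genes called higher, called lower and all genes. Boxes span the quartiles with the median as a line and whiskers reach the 5th and 95th percentiles over genes. The medians of the higher genes are -3.23 for H3K27me3 and 0.69 for H3K27ac, and those of all genes -0.73 and 0.16.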

How the data were processed

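RNA-seq libraries of 4 *EZH2* genotypes, 3 each, were analysed. The authors trimmed reads (Trim Galore 0.4.0), aligned them to GRCh38 with TopHat2 2.0.12, counted them per gene without strand in SeqMonk, and deposited log2 RPM. ChIP-seq reads were aligned with Bowtie2 2.2.5, and non-duplicated reads within 2.5 kb of start sites were deposited by the authors as log2 RPM. RPM gave whole reads for 100% of values below 1000 reads (tolerance 0.02 reads).

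Genes averaging at least 0.1 RPM over the 12 libraries (20608) were fitted with limma 3.58.1 (R 4.3.3, trend) on log2(RPM + 0.1), using all 12 libraries to estimate the spread, with Benjamini-Hochberg adjustment over all of them. Fold changes on this scale understate those of low genes. The deposited values are logarithms, so the main fit used them on that scale, and limma voom on the recovered reads was an alternative. On simulated data the fit recovered 95.9% of 98 genes changed by log2 1 and 100% of 102 changed by log2 2, for this comparison and 20608 genes. The simulation gave all genes 1 fixed spread, without shared deviations of replicates, and changed only genes of at least 1 RPM. These shares therefore do not measure how many real changes were found. In the real data 796 members differed by at least 2-fold, and the calls among these were 254 higher and 60 lower.

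Same-numbered libraries deviated together from their group means (correlation 0.127 to 0.691 in all 18 pairs, mean 0.415). Pairs of other numbers and other groups had -0.598 to 0.327 (mean -0.197). *EZH2*-/- replicate 1 correlated more with restored replicate 2 (0.327) than with restored replicate 1 (0.288). Between these 2 groups the pairing of replicates 1 and 2 is thus not borne out. The replicate number is a pairing that comes from the data and not from the labels, and p values with the block rest on it. The block left each call in place and raised the counts as given with them.

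Named genes were *EZH2*, the 12 largest rises and 8 largest falls with no overlap between libraries, the 6 most abundant risen and fallen, up to 3 called genes in each direction per list, and the 2 most abundant members of lists with fewer than 2 calls. Further names are marked as chosen after their values were seen, and a few genes are not reported here. The members and lists were chosen with earlier results of these data known, and lists share genes. Promoter sequences are from RefSeq.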

Additional observations from a re-analysis of the deposited data

How the results depend on the processing

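The number of genes higher and lower in *EZH2*-/- than in *EZH2*-/-+*EZH2* cells (300 and 107) was 845 and 623 with the replicate block and 568 and 185 with the block in the 6 libraries alone. Limma voom on recovered reads gave 173 and 36. The lower genes numbered 50 with the 6 libraries alone and 67 with genes under a mean of 1 RPM left out of the fit. Leaving out single libraries, the higher genes ranged from 58 to 369 and the lower genes from 14 to 131, the lowest both without *EZH2*-/- replicate 2. With the libraries numbered 3 left out of all groups, a choice made after seeing the data, 159 were higher and 72 lower. Other pseudocounts, no filter, 2 other scalings and thinning to the shallowest library kept both counts within 1.5 times. The cause was not tested. *EZH2* was called in each of the 18 alternatives.

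All 407 calls kept their direction in all 18 alternatives, which is no test of them. The block leaves fold changes as they are, and leaving out 1 library cannot turn a gene whose groups do not overlap. Of 92 named genes called besides *EZH2*, 18 stayed called in every alternative: *ARMCX1*, *BGN*, *BMI1*, *CDKN2A*, *CLDN7*, *COL6A3*, *DIO3*, *DLL3*, *FN1*, *GPR50*, *HPGD*, *ITGA9*, *PLK2*, *SYK*, *TBX3*, *TCEAL5*, *TWIST1* and *UTF1*. Between 9 (without *EZH2*-/- replicate 1) and 66 (without *EZH2*-/- replicate 2) lost the call when 1 library was left out, and 48 lost it with voom.

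Some genes that were not called changed sign. With upper quartile scaling *POU5F1* was at -0.0208 and *RPS4X* at -0.0403, and with median ratio scaling *RPS4X* was at -0.00964. With the libraries numbered 3 left out, *ENO1* was at 0.0102, *POU5F1* at -0.120, *IFITM2* at -0.00498 and *CBX2* at -0.0384. With 1 library left out, log2 differences ranged from -0.209 to 0.166 for *ENO1*, -0.000895 to 0.0952 for *LIN28A*, -0.291 to 0.0300 for *CCNB1*, -0.104 to 0.119 for *POU5F1*, -0.135 to 0.0632 for *HSP90AB1*, -0.0641 to 0.253 for *IFITM2*, -0.175 to 0.0805 for *GAPDH*, -0.0365 to 0.143 for *ATP5B*, -0.204 to 0.0804 for *ATP5A1* and -0.120 to 0.173 for *RPS4X*.

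Each replicate number holds 1 library per genotype, so no value within a number carries a test. Depth limits what is seen of genes under 0.120 RPM, the value of 3 reads in the shallowest library. Floors cover counting error only.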
